A study of Mus musculus with 12 samples.

Results

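The 35 genes described here are the hypoxia and glycolysis genes of mouse, comprising the 2 alpha subunits of the hypoxia-inducible factors (HIF), 2 oxygen sensors, 11 other HIF targets, 2 glucose transporters, 13 glycolytic enzymes, 2 regulators of glycolytic flux and 3 genes that set the fate of pyruvate. They were taken by gene symbol from a written list, by a rule that uses no measured value. The list itself was chosen with earlier results of these data known. The symbols matched 36 of the 54446 Ensembl identifiers in the count table. Aldoa matched 2 identifiers, of which the longer stands for the gene, and the other (ENSMUSG00000114515.2, chr7:126800790-126809108 of GRCm38) was kept apart. All 35 genes had enough counts to be tested. Together they held 1.15% of the counts.

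RNA was sequenced from 12 tumours of Sq-1979, a mouse cell line described as head and neck squamous cell carcinoma. The cells were mixed with Matrigel and grown under the skin of the back in male mice of the strain C3H/HeN, which were 6 weeks old at injection, so every group shares the line, the strain, the sex and a site away from the head and neck. The 4 groups of 3 tumours received the vehicle, a rat anti-PD1 antibody, SN-38, or anti-PD1 with SN-38 (the combination). PD1 is a receptor that restrains T cells. SN-38 is the active metabolite of irinotecan and inhibits topoisomerase I. The sources used here give no doses or times. No label says that tumours 1 to 3 of a group grew in different mice, so p-values reflect only the spread of these samples, which may be technical in part. By its title, the series concerns whether SN-38 raises the efficacy of anti-PD1, and the comparisons ask whether either drug or the combination moved these genes.

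HIF alpha subunits are made constantly and, in well-oxygenated cells, are marked by prolyl hydroxylases and destroyed. When oxygen is short the hydroxylases slow down, the subunits accumulate with their partner Arnt, and they bind promoters and enhancers of genes for glucose uptake, glycolysis, vessel growth, pH control and mitochondrial turnover. The control acts mostly on protein stability, so the mRNA of the subunits need not follow that of their targets. Solid tumours outgrow their blood supply, and targets such as Car9, Vegfa and Slc2a1 are widely read as marks of poorly oxygenated tumour regions.

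Total counts ran from 21088288 to 28512141 per tumour. All 15 markers of squamous epithelium on a list written for the purpose passed the filter on low counts, and their summed level ran from 11927 to 21994 counts-per-million (CPM) of the scaled library. Markers of other cells differed widely between tumours, from 6513 to 65869 CPM for 10 fibroblast and matrix genes and from 27.9 to 490.4 CPM for 14 skeletal muscle genes. In whole tumours, fewer cells of a type and less RNA per cell cannot be told apart. The sources used here do not give the counting program or its strand setting. Of the 35 genes, 17 overlap another annotated gene, 15 of them on the opposite strand, and 3 overlap a gene with more than 5% of their own counts (Ankrd37 with Ufsp2, Slc2a3 with Gm4482 and Pfkp with Pitrm1), so these 3 are the least certain. Glycolytic enzymes such as Gapdh also have many processed pseudogenes, and how reads shared with those were counted is not known.

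None of the 35 genes passed the threshold in any of 8 treatment comparisons, where 0% to 0.00594% of all tested genes did so. For 30 of them the highest of the 4 group means was less than 1.5 times the lowest, and the widest ratios were 1.95 for Slc2a3, 1.94 for Vegfa, 1.74 for Car9, 1.74 for Adm and 1.54 for Epas1. Most of the genes rose and fell together from tumour to tumour within a group. Combination tumour 1, SN-38 tumour 1 and vehicle tumour 2 had high values of most HIF targets and glycolytic enzymes, while SN-38 tumour 2, combination tumour 3 and anti-PD1 tumour 3 had low values. SN-38 tumour 1 exceeded SN-38 tumour 2 in 33 of the 35 genes, where 50.2% of the other tested genes did so. Combination tumour 1 exceeded combination tumour 3 in 30 of the 35, against 48.4% of the other genes. Each pair holds the highest and the lowest tumour of its group by the mean level of these same genes. A majority of members was therefore fixed by that choice, and the shares of other genes are no test of it. Combination tumour 1 held the highest value of 19 genes, while combination tumour 3 held the lowest of 16 and SN-38 tumour 2 the lowest of 10.

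**Figure D1:**
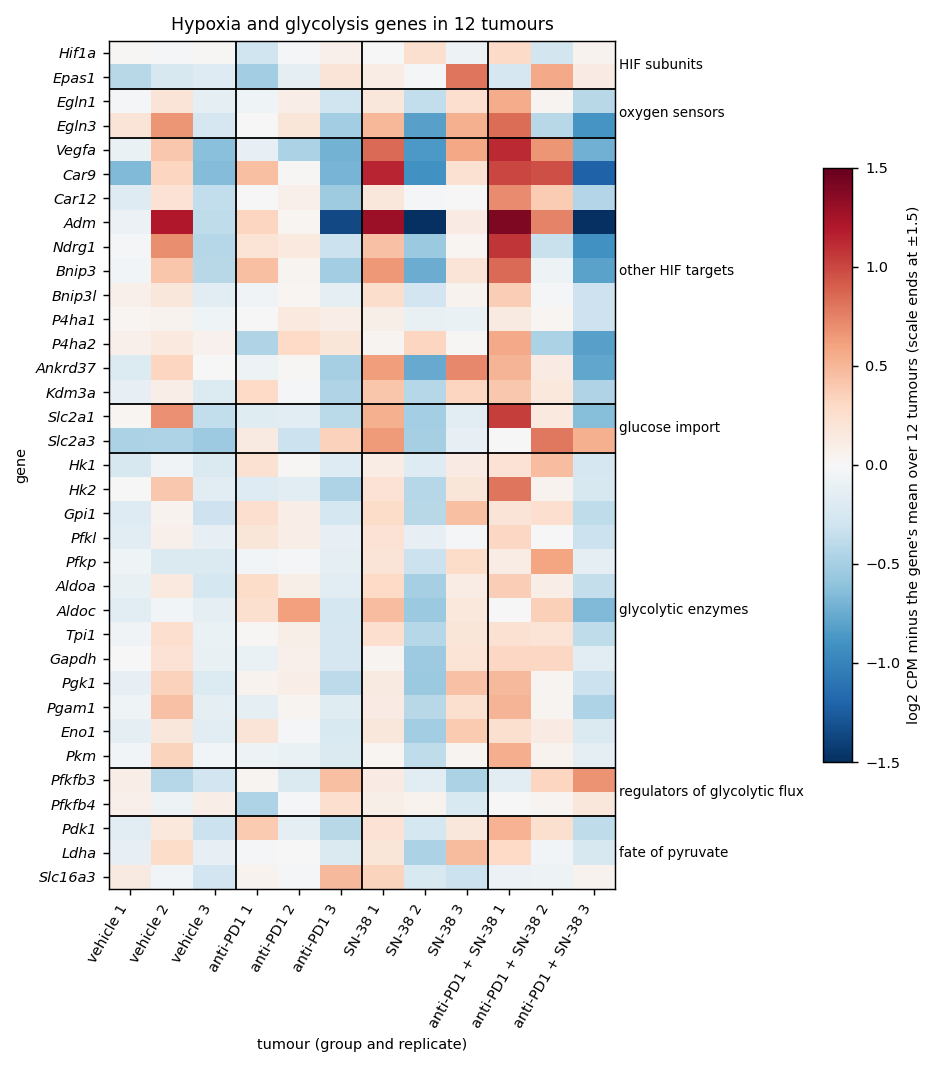
Each row is a gene, ordered by role, and each column a tumour, with colour giving log2 CPM minus the gene's mean over the 12 tumours (the scale ends at ±1.5). The rows of the oxygen sensors, most HIF targets and most glycolytic enzymes are red together in combination tumour 1 and SN-38 tumour 1 and blue together in SN-38 tumour 2 and combination tumour 3, while Hif1a, Epas1, Slc2a3, Pfkfb3, Pfkfb4 and Slc16a3 have other patterns.

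The DNA before the start of 5 of these genes is shown because 4 of them (Adm, Car9, Egln3 and Slc2a1) moved together across tumours while Hif1a did not. HIF binds a short core, ACGTG or GCGTG, and both were searched on both strands in the 250 bases upstream of each RefSeq start (GRCm38.p6). Matches are in capitals, and a match to the minus strand reads CACGT or CACGC. The windows are chr7:110627407-110627656 (plus strand) for Adm, chr4:43506776-43507025 (plus) for Car9, chr12:54203875-54204124 (minus) for Egln3, chr4:119108495-119108744 (plus) for Slc2a1 and chr12:73907617-73907866 (plus) for Hif1a. The RefSeq starts of Car9, Slc2a1 and Hif1a lie inside the longer spans that GENCODE gives these genes.
Adm: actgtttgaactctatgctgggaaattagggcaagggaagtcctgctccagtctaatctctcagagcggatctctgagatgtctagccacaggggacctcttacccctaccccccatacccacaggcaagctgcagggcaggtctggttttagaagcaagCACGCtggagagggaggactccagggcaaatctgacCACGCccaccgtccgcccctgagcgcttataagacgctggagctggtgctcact
Car9: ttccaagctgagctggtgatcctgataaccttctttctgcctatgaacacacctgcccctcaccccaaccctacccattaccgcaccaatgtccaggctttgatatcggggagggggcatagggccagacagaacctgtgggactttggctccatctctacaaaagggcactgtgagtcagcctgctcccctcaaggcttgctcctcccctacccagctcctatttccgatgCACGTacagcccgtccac
Egln3: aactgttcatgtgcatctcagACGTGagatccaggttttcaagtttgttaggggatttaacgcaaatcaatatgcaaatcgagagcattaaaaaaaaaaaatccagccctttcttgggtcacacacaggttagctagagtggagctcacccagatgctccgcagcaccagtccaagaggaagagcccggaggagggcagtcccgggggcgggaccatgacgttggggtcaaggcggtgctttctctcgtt
Slc2a1: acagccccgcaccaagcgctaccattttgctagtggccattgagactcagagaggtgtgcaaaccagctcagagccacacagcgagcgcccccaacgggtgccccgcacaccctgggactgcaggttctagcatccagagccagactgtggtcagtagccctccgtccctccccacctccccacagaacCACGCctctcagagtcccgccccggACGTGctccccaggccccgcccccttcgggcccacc
Hif1a: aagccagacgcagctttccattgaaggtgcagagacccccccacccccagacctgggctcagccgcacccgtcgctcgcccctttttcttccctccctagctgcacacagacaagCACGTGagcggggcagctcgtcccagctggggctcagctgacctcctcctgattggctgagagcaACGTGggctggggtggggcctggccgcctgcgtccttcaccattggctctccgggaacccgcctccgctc

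Adm had GCGTG on the minus strand at -90 to -86 and at -54 to -50, counted from the start. Car9 had 1 match, ACGTG on the minus strand at -18 to -14, beside its RefSeq start and inside the span given by GENCODE. Egln3 had 1 match at the far end of its window, at -229 to -225. Slc2a1 had GCGTG on the minus strand at -61 to -57 and ACGTG on the plus strand at -36 to -32, the second of them across the start given by GENCODE. Hif1a, whose mRNA did not move with the others, had 3 matches. Of these, 2 share the letters CACGTG on opposite strands (-135 to -131 and -134 to -130) and 1 lies at -70 to -66. RefSeq held 44 promoter entries for 31 of the 35 genes, without Bnip3l, Ndrg1, Slc2a3 and Epas1. Of these entries 34 (77.3%) held a match, against 38.6% of 32851 promoters of all genes, and 20 (45.5%) held 2 or more, against 16.7%. The promoters of the 31 genes were richer in G and C, with a median of 62.2% against 52.4%. Among the 9082 promoters of all genes with a GC content between 55.6% and 67.6%, the lower and upper quartile of these entries, 55.2% held a match and 26.6% held 2 or more. A match is a stretch of letters and not a measured binding site, and HIF binding was not measured here.

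Among the HIF subunits, the mRNA of Hif1a, the subunit found in most cells (ENSMUSG00000021109.13, chr12:73901375-73947530), was the steadier. Hif1a was at 134, 132 and 135 CPM in vehicle tumours, 108, 132 and 140.2 in anti-PD1 tumours, 134, 157 and 126 in SN-38 tumours and 163, 110.2 and 138 in combination tumours (values here and below are tumours 1, 2 and 3 of each group). The groups overlapped, and combination tumours 1 and 2 marked the upper and nearly the lower end of the whole range. Group means were 134 ± 1.64 CPM in vehicle tumours, 127 ± 16.7 in anti-PD1 tumours, 139 ± 16.3 in SN-38 tumours and 137 ± 26.4 in combination tumours (SD, n = 3), and the log2 fold changes against vehicle were -0.08 ± 0.14, 0.06 ± 0.14 and 0.03 ± 0.14 (SE, in the same order of treatments).

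Epas1 encodes HIF-2 alpha, a subunit known from endothelial cells, macrophages and kidney (chr17:86753700-86833410). It was at 27.4, 30.8 and 32.0 CPM in vehicle tumours, 25.4, 33.1 and 41.6 in anti-PD1 tumours, 39.3, 35.8 and 63.8 in SN-38 tumours and 30.7, 54.0 and 39.7 in combination tumours. All 3 SN-38 tumours lay above all 3 vehicle tumours, the combination overlapped with vehicle through its tumour 1, and SN-38 tumour 3 was the highest of all. The log2 fold change was 0.62 ± 0.26 (SE) for SN-38 against vehicle and 0.47 ± 0.19 for SN-38 averaged over antibody status, neither of which passed (edgeR adjusted p = 0.473 and 0.431). Without SN-38 tumour 3 the first was 0.32. The 10 endothelial markers summed to 140 to 166 CPM in vehicle tumours, 141 to 187 in anti-PD1 tumours, 155 to 181 in SN-38 tumours and 195 to 215 in combination tumours. SN-38 tumour 3, the highest in Epas1, had the lowest endothelial sum of its group (155 CPM). The part of endothelial cells in the Epas1 values was not tested. Per kilobase of exon, the level of Hif1a was 1.88 to 5.04 times that of Epas1, with a median of 3.89.

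The oxygen sensors Egln1 (PHD2) and Egln3 (PHD3) are prolyl hydroxylases that mark HIF alpha and are themselves HIF targets. Egln3 (chr12:54178981-54203860) was at 258, 357 and 190.2 CPM in vehicle tumours, 224, 256 and 158 in anti-PD1 tumours, 319, 129 and 327 in SN-38 tumours and 403, 169.6 and 122 in combination tumours. Vehicle tumour 2, SN-38 tumours 1 and 3 and combination tumour 1 were high, and the lowest values of all 4 groups lay between 122 and 190.2 CPM. The highest-to-lowest ratio was 2.55 inside the SN-38 group and 3.31 inside the combination. Egln1 ran from 141 to 279 CPM, and the correlation of the 2 sensors over 12 tumours was 0.93 on the log2 scale. Averaged over SN-38 status, the anti-PD1 difference of Egln3 was -0.25 ± 0.33 (SE, log2), and it was -0.58 without combination tumour 1. Per kilobase, Egln1 stood at 0.45 to 0.86 times the level of Egln3.

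Among the other HIF targets, Adm, which encodes the vessel-dilating peptide adrenomedullin (chr7:110627661-110629820), varied most of all 35 genes. Adm was at 33.9, 82.9 and 27.7 CPM in vehicle tumours, 44.9, 36.7 and 14.1 in anti-PD1 tumours, 87.8, 12.3 and 39.1 in SN-38 tumours and 95.1, 60.3 and 10.7 in combination tumours. The vehicle, SN-38 and combination groups each held a tumour at 82.9 CPM or more, whereas the highest anti-PD1 tumour was at 44.9 CPM, and all 3 treated groups overlapped with vehicle. Inside a group the highest tumour was 2.997 times the lowest with vehicle, 3.19 times with anti-PD1, 7.15 times with SN-38 and 8.88 times with the combination. The log2 differences from vehicle were -0.60 ± 0.83, -0.05 ± 0.82 and 0.20 ± 0.82 (SE), smaller than their errors.

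Car9, a membrane carbonic anhydrase that helps hypoxic cells export acid (chr4:43506966-43513729), had the next widest spread. Car9 was at 40.5, 80.0 and 40.9 CPM in vehicle tumours, 87.4, 64.8 and 39.6 in anti-PD1 tumours, 141, 34.2 and 75.1 in SN-38 tumours and 129, 125 and 27.7 in combination tumours. The high tumours were SN-38 tumour 1 and combination tumours 1 and 2, and the lowest was again combination tumour 3. Group means were 53.8 ± 22.7 CPM in vehicle tumours, 63.9 ± 23.9 in anti-PD1 tumours, 83.5 ± 53.9 in SN-38 tumours and 93.8 ± 57.3 in combination tumours (SD, n = 3). The log2 differences from vehicle of 0.63 ± 0.61 with SN-38 and 0.80 ± 0.62 with the combination (SE) had edgeR adjusted p-values of 0.775 and 0.571. Car12, the related enzyme, ran from 126 to 297 CPM and stood, per kilobase, at 0.44 to 1.58 times the level of Car9.

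Vegfa, the main growth factor for new vessels (chr17:46016993-46032369), was at 88.8, 126 and 61.3 CPM in vehicle tumours, 86.8, 68.3 and 58.1 in anti-PD1 tumours, 171, 52.3 and 141 in SN-38 tumours and 205, 151 and 57.4 in combination tumours. The anti-PD1 tumours stayed between 58.1 and 86.8 CPM, while the SN-38 and combination groups each held 2 tumours at 141 CPM or more and 1 at 57.4 CPM or less. The combination against anti-PD1 gave 0.96 ± 0.50 (SE, log2, edgeR adjusted p = 0.674) and SN-38 averaged over antibody status gave 0.68 ± 0.35 (adjusted p = 0.529). The groups overlapped, since SN-38 tumour 2 and combination tumour 3 lay below all 3 anti-PD1 tumours.

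Ndrg1, a stress-responsive protein named for its rise on differentiation, was at 612, 1009 and 463 CPM in vehicle tumours, 718, 692 and 497 in anti-PD1 tumours, 845, 423 and 634 in SN-38 tumours and 1313, 494 and 333 in combination tumours. Bnip3, a mitochondrial receptor for mitophagy, was at 139, 192 and 107 CPM in vehicle tumours, 196, 148 and 100 in anti-PD1 tumours, 225, 85.9 and 164 in SN-38 tumours and 259, 136 and 82.2 in combination tumours. For both genes combination tumour 1 was the highest and combination tumour 3 the lowest of all 12. Bnip3l, the relative of Bnip3, had the same highest and lowest tumours within a narrower range, from 103 to 166 CPM. Kdm3a, a histone H3 lysine demethylase, ran from 123 to 224 CPM. Ankrd37, a small ankyrin-repeat protein whose gene overlaps Ufsp2, was at 16.7, 24.1 and 19.3 CPM in vehicle tumours, 18.3, 19.6 and 13.6 in anti-PD1 tumours, 29.7, 11.4 and 31.8 in SN-38 tumours and 27.4, 21.1 and 11.3 in combination tumours, with SN-38 tumours 1 and 3 highest. Its smallest p fell in the anti-PD1 effect averaged over SN-38 status, at -0.26 ± 0.27 (SE, log2, edgeR adjusted p = 0.878).

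The collagen prolyl hydroxylases P4ha1 and P4ha2 followed the rest less closely than the other HIF targets did, P4ha2 least of all. Over the 12 tumours, the correlation with the mean of the other members was 0.62 for P4ha1 and 0.24 for P4ha2 (log2 scale). Taken about the group means it was 0.79 and 0.32. P4ha1, the least variable of the 35 genes, was at 116, 117 and 108 CPM in vehicle tumours, 114, 126 and 121 in anti-PD1 tumours, 120.4, 105 and 106 in SN-38 tumours and 125, 115 and 91.3 in combination tumours. Its groups overlapped, and combination tumour 3 was the lowest. The combination against anti-PD1 gave -0.12 ± 0.11 for P4ha1 (SE, log2, edgeR adjusted p = 0.809), which became -0.00 without combination tumour 3, and SN-38 averaged over antibody status gave -0.08 ± 0.08 (adjusted p = 0.751). P4ha2 was at 76.7, 80.9 and 76.2 CPM in vehicle tumours, 53.4, 90.0 and 82.8 in anti-PD1 tumours, 74.9, 91.2 and 73.8 in SN-38 tumours and 108, 52.3 and 41.6 in combination tumours. Its 3 vehicle tumours were nearly equal, and combination tumour 1 was the highest and tumour 3 the lowest of all. The combination differed from vehicle by -0.21 ± 0.31 (SE, log2), and by -0.73 without combination tumour 1 (edgeR adjusted p = 0.202). Both enzymes modify collagen, which fibroblasts make. The summed fibroblast and matrix level was highest in SN-38 tumour 2, at 65869 CPM, where most other targets were low. There P4ha2 was at 91.2 CPM, but P4ha1 was at 105 CPM, the lowest of its group. P4ha2 was highest in combination tumour 1, where that summed level was 16393 CPM. The part of fibroblasts in this was not tested.

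**Figure D2:**
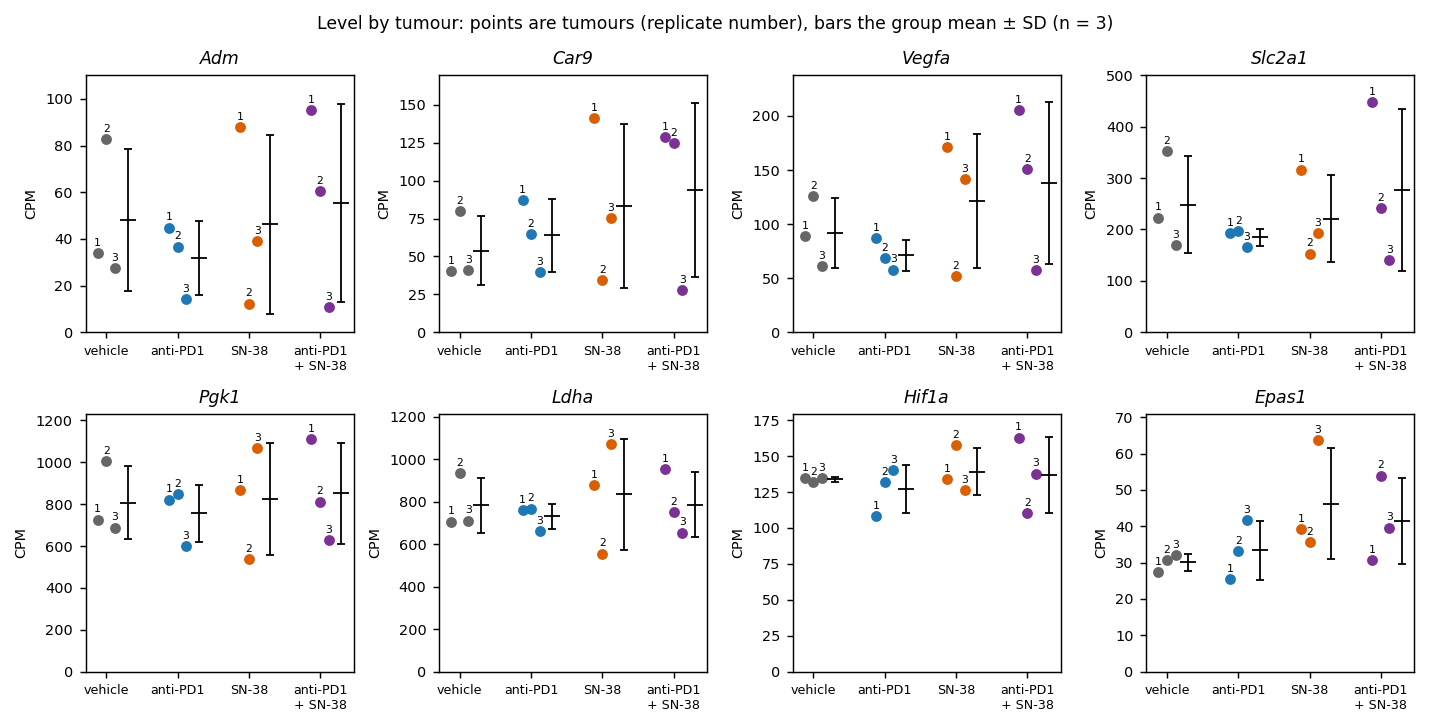
Points give the CPM of 8 genes in each tumour with the replicate number, and bars the group mean ± SD (n = 3), on axes that start at 0. In Adm, Car9, Vegfa, Slc2a1, Pgk1 and Ldha each treated group overlaps with vehicle, the anti-PD1 tumours have the narrowest spread of the 4 groups in Slc2a1 and Ldha, Hif1a stays between 108 and 163 CPM, and in Epas1 the 3 SN-38 tumours lie above the 3 vehicle tumours.

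Of the 2 glucose transporters, Slc2a1 (GLUT1, chr4:119108711-119137983) carried nearly all of the mRNA. Slc2a1 was at 223, 352 and 169 CPM in vehicle tumours, 193, 196 and 165 in anti-PD1 tumours, 317, 153 and 194 in SN-38 tumours and 448, 242 and 139.9 in combination tumours. Vehicle tumour 2, SN-38 tumour 1 and combination tumour 1 were high, and the anti-PD1 tumours were alike. Slc2a3 (GLUT3, chr6:122727809-122801640), a high-affinity transporter of neurons and white blood cells, was at 2.43, 2.44 and 2.31 CPM in vehicle tumours, 3.69, 2.69 and 4.28 in anti-PD1 tumours, 5.27, 2.38 and 3.09 in SN-38 tumours and 3.34, 5.83 and 4.87 in combination tumours. The 3 vehicle tumours were nearly equal and lay below every anti-PD1 and every combination tumour, while SN-38 tumour 2 fell among them. The log2 differences from vehicle were 0.57 ± 0.32 with anti-PD1, 0.58 ± 0.32 with SN-38 and 0.96 ± 0.32 with the combination (SE). None passed (edgeR adjusted p = 0.844, 0.576 and 0.331), and the SN-38 value was 0.19 without SN-38 tumour 1. Averaged over the other treatment, Slc2a3 differed by 0.49 ± 0.22 with SN-38 and 0.48 ± 0.22 with anti-PD1 (adjusted p = 0.478 and 0.754). Per kilobase, Slc2a1 stood at 59.3 to 299 times the level of Slc2a3.

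Slc2a3 is expressed by immune cells, and summed markers of macrophages and of T cells are given with it. The 10 macrophage markers summed to 720.5, 567 and 632 CPM in vehicle tumours, 579.5, 574 and 1149 in anti-PD1 tumours, 613, 656 and 424 in SN-38 tumours and 604, 771 and 1266 in combination tumours. The 8 T-cell markers summed to 86.8, 77 and 70.1 CPM in vehicle tumours, 112, 76.8 and 189 in anti-PD1 tumours, 90.3, 93.2 and 64.5 in SN-38 tumours and 83.5, 79.2 and 226 in combination tumours. Anti-PD1 tumour 3 and combination tumour 3, the highest in both sums, had Slc2a3 at 4.28 and 4.87 CPM, but combination tumour 2 and SN-38 tumour 1, with lower sums, had 5.83 and 5.27. The 12 neutrophil markers summed to 314 CPM in SN-38 tumour 1 and 159.6 in combination tumour 2, the 2 highest sums, although the neutrophil markers Ly6g, Camp and Mmp8 stayed below 1 CPM in every tumour. Combination tumour 1 had nearly the same neutrophil sum (157 CPM) as combination tumour 2, but its Slc2a3 was at 3.34 CPM. The part of these cells in the Slc2a3 values was not tested.

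The 13 glycolytic enzymes cover the steps from glucose to pyruvate, and they held the highest levels of the set. Per kilobase of exon the mean was 384 CPM for Aldoa, 361 for Pgk1, 348 for Gapdh and 313 for Pkm. Pgk1, which makes the first ATP of the pathway (chrX:106187100-106203699), was at 727, 1006 and 688 CPM in vehicle tumours, 821, 848 and 600.4 in anti-PD1 tumours, 866, 538 and 1068 in SN-38 tumours and 1112, 813 and 630.1 in combination tumours. SN-38 tumour 3 and combination tumour 1 were the highest and SN-38 tumour 2 the lowest, and the 4 group means lay between 757 and 851 CPM. Pkm, the last enzyme of the pathway, was at 1499, 1951 and 1502 CPM in vehicle tumours, 1461, 1439 and 1324 in anti-PD1 tumours, 1582, 1189 and 1582 in SN-38 tumours and 2248, 1603 and 1398 in combination tumours. All 3 anti-PD1 tumours lay below all 3 vehicle tumours, by -0.23 ± 0.19 on the log2 scale (SE, edgeR adjusted p = 0.869). The interaction (the anti-PD1 effect in the presence of SN-38 less the effect in its absence) was 0.50 ± 0.27 for Pkm (adjusted p = 0.675). Against SN-38 alone, the combination differed in Pkm by 0.27 ± 0.19, and by 0.05 without combination tumour 1.

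Hk2, the hexokinase that is induced in tumours and traps glucose in the cell, was at 96.1, 127 and 85.5 CPM in vehicle tumours, 83.8, 86.3 and 69.7 in anti-PD1 tumours, 112, 71.3 and 109 in SN-38 tumours and 168, 99.6 and 81.2 in combination tumours. It was highest in combination tumour 1, and the anti-PD1 tumours lay between 69.7 and 86.3 CPM. The combination against anti-PD1 gave 0.54 ± 0.27 (SE, log2, edgeR adjusted p = 0.653), and 0.18 without combination tumour 1. Hk1, the housekeeping form, ran from 223 to 367 CPM and stood, per kilobase, at 1.29 to 2.60 times the level of Hk2, with the lowest ratio in combination tumour 1. Aldoc, the aldolase of brain, was at 39.7, 43.2 and 40.2 CPM in vehicle tumours, 52.2, 68.1 and 37.0 in anti-PD1 tumours, 61.0, 30.1 and 49.3 in SN-38 tumours and 44.3, 56.6 and 28.0 in combination tumours. It was highest in anti-PD1 tumour 2 and lowest in combination tumour 3, and its interaction of -0.48 ± 0.43 did not pass (adjusted p = 0.834). Aldoa exceeded Aldoc 19.3 to 36.1 times per kilobase. Its second identifier was at 1.13, 1.66 and 1.35 CPM in vehicle tumours, 1.49, 1.42 and 1.44 in anti-PD1 tumours, 0.847, 1.21 and 1.04 in SN-38 tumours and 1.33, 1.20 and 1.27 in combination tumours, with SN-38 tumours 1 and 3 the lowest (-0.42 ± 0.22 against vehicle, adjusted p = 0.558), and it overlaps Fam57b. The remaining enzymes (Gpi1, Pfkl, Pfkp, Tpi1, Gapdh, Pgam1 and Eno1) varied between 1.54-fold (Pfkl) and 1.97-fold (Pgam1) from the lowest to the highest tumour. Pfkp, a phosphofructokinase, differed most from vehicle among these, by 0.39 ± 0.19 with the combination (adjusted p = 0.409).

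The regulators of flux, Pfkfb3 and Pfkfb4, make and remove fructose 2,6-bisphosphate, the activator of phosphofructokinase, and both are known HIF targets. Pfkfb3 was at 43.1, 29.8 and 33.0 CPM in vehicle tumours, 41.4, 34.7 and 55.2 in anti-PD1 tumours, 43.9, 35.9 and 29 in SN-38 tumours and 36.1, 50.3 and 64.0 in combination tumours. It did not follow the other genes (r = -0.39 with the mean of the other members over 12 tumours). It was highest in combination tumour 3 and anti-PD1 tumour 3, where most HIF targets were low. Combination tumour 2 and SN-38 tumour 1, where Vegfa and Car9 were high, came next (50.3 and 43.9 CPM). Averaged over SN-38 status, the anti-PD1 tumours differed by 0.39 ± 0.17 (SE, log2, edgeR adjusted p = 0.737), and the combination differed from vehicle by 0.51 ± 0.25 (adjusted p = 0.409) and from SN-38 alone by 0.47 ± 0.24 (adjusted p = 0.653). Its 2 highest tumours were also the 2 with the highest macrophage and T-cell marker sums given above, and the part of those cells was not tested. Pfkfb4 stayed between 7.64 and 12.5 CPM.

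Of the genes that set the fate of pyruvate, Ldha, which turns pyruvate to lactate, was at 705, 932 and 711 CPM in vehicle tumours, 761, 767 and 662 in anti-PD1 tumours, 878, 555 and 1072 in SN-38 tumours and 951, 752 and 654 in combination tumours. Pdk1, the kinase that shuts pyruvate out of the mitochondrial cycle, was at 94.7, 118 and 85.0 CPM in vehicle tumours, 139, 95.6 and 79.5 in anti-PD1 tumours, 123, 88.3 and 119 in SN-38 tumours and 152, 125 and 81.7 in combination tumours. Both followed the HIF targets, although Ldha peaked in SN-38 tumour 3 and Pdk1 in combination tumour 1. Slc16a3, the lactate exporter MCT4, was at 20.9, 18.6 and 15.7 CPM in vehicle tumours, 19.8, 18.8 and 26.7 in anti-PD1 tumours, 24.1, 16.4 and 15.3 in SN-38 tumours and 18.0, 18.1 and 19.9 in combination tumours. It did not follow them, since anti-PD1 tumour 3, low in Ldha and Pdk1, had its highest value. The log2 difference of Slc16a3 was 0.24 ± 0.19 for anti-PD1 against vehicle, -0.22 ± 0.19 for the combination against anti-PD1 and -0.24 ± 0.27 for the interaction (SE, edgeR adjusted p = 0.862, 0.796 and 0.881).

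The treatment comparisons were tested over all 16833 genes with edgeR's quasi-likelihood method, with p-values adjusted by Benjamini and Hochberg's method and a threshold of 0.05. With anti-PD1 against vehicle, 0 of the 35 genes passed, where 0% of all genes did so, and 0 reached an unadjusted p below 0.05, where 5.6% of all genes did so. DESeq2 also called 0 of the 35 and 0.349% of its tested genes. Slc2a3 was the 1 member higher without overlap, as 7.99% of all genes were, and Pkm the 1 member lower, as 9.2% were. Of the 35 genes 16 were higher, with a median log2 difference of -0.05 against 0.01 over all genes.

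With SN-38 against vehicle, edgeR called 0 of the 35 genes and 0.00594% of all genes, and 1 member, Epas1, had an unadjusted p below 0.05, where 10% of all genes did. DESeq2 called 0 members and 1.13% of its tested genes. Epas1 was the 1 member higher without overlap (11.1% of all genes) and none was lower (7.96%). In direction, 23 members were higher, with a median of 0.06 against 0.01 over all genes. With the combination against vehicle, edgeR called 0 members and 0% of all genes, 1 member, Slc2a3, had an unadjusted p below 0.05 (12.9% of all genes), and DESeq2 called 0 members and 1.22% of its tested genes. Slc2a3 was higher without overlap (11.7% of all genes) and no member was lower (11.8%). Here 30 members were higher, at a median of 0.10 against 0.01 over all genes. The 3 comparisons share the vehicle tumours, so their directions are not separate evidence.

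When the combination was set against anti-PD1, edgeR called 0 members and 0% of all genes, no member had an unadjusted p below 0.05 (7.96% of all genes), and DESeq2 called 0 members and 0.507% of its tested genes. No member was higher (6.93% of all genes) or lower (5.3%) without overlap. The members' median was 0.17, with 29 higher, against 0.00 over all genes. For the combination against SN-38, edgeR again called 0 members and 0% of all genes, no member had an unadjusted p below 0.05 (7.92%), and DESeq2 called 0 members and 0.385%. No member was higher (5.08%) or lower (4.54%) without overlap. The median was 0.06, with 24 higher, against -0.01 over all genes.

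Averaged over antibody status, the SN-38 effect passed by edgeR in 0 members and 0% of all genes, in 1 member (Epas1) and 10.5% of all genes at an unadjusted p below 0.05, and by DESeq2 in 0 members and 1.25% of its tested genes. In this comparison 31 of the 35 members were higher, at a median of 0.10 against 0.00 over all genes. The anti-PD1 effect averaged over SN-38 status passed by edgeR in 0 members and 0% of all genes, in 1 member (Pfkfb3) and 6.67% of all genes at an unadjusted p below 0.05, and by DESeq2 in 0 members and 0.0344%. Here 19 members were higher, at a median of 0.01 against -0.00 over all genes. The interaction passed by edgeR in 0 members and 0% of all genes, in 0 members and 7.63% of all genes at an unadjusted p below 0.05, and by DESeq2 in 0 members and 0.127%. It was above 0 in 20 members, at a median of 0.05 against -0.01 over all genes. In all 8 comparisons the share of members at an unadjusted p below 0.05 was under that of all genes. The members were also measured with more spread, with a median SE of 0.25 in the pairwise comparisons against 0.18 over all genes. In the direction counts the members are not independent of each other, since most moved together, and single tumours decided the sign of the median. Leaving out 1 tumour turned that sign in 7 of the 8 comparisons, with ranges of -0.10 to 0.10 for anti-PD1, -0.04 to 0.26 for SN-38 and -0.09 to 0.30 for the combination against vehicle, -0.03 to 0.35 for the combination against anti-PD1, -0.15 to 0.23 against SN-38, -0.08 to 0.09 for the averaged anti-PD1 effect and -0.12 to 0.22 for the interaction. The tumour whose removal turned it was combination tumour 1 in all 5 comparisons that hold the combination and had a turn, and in 3 of these other tumours did so too. For anti-PD1 against vehicle these were vehicle tumour 2 and anti-PD1 tumour 3, and for SN-38 against vehicle, vehicle tumour 3 and SN-38 tumour 1. In the averaged SN-38 effect the median stayed between 0.02 and 0.20.

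**Figure D3:**
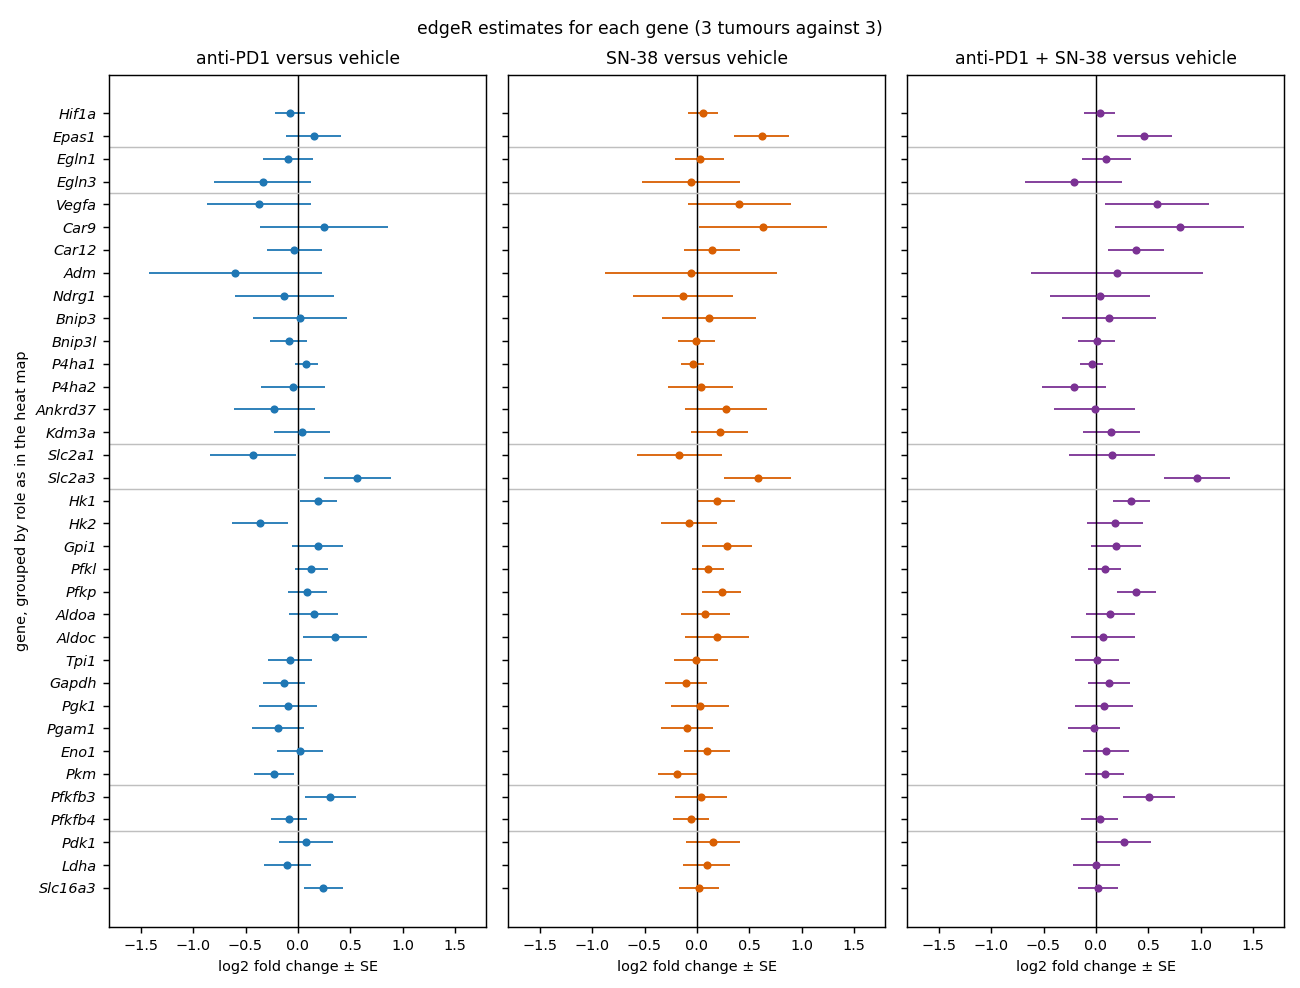
Points are edgeR's log2 fold changes against vehicle for the 35 genes and bars are ± 1 SE, with 1 panel for each treatment (3 tumours against 3). Within 1 SE of 0 lie 27, 29 and 26 of the 35 estimates in the anti-PD1, SN-38 and combination panels, Slc2a3 lies to the right in all 3 panels (0.96 ± 0.32 with the combination), and Adm and Car9 have the widest bars.

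A module score, the mean log2 CPM of the 35 genes in a tumour, was 7.11, 7.40 and 6.98 in vehicle tumours, 7.23, 7.22 and 6.97 in anti-PD1 tumours, 7.53, 6.80 and 7.37 in SN-38 tumours and 7.65, 7.38 and 6.82 in combination tumours. The group means were 7.17 ± 0.21, 7.14 ± 0.15, 7.23 ± 0.39 and 7.28 ± 0.42 in the same order (SD, n = 3). They differed from vehicle by -0.02, 0.07 and 0.12, while the tumours within a group ranged over 0.42, 0.26, 0.73 and 0.83, so the spread inside each group exceeded every difference between groups. Leaving out combination tumour 3 moved the last difference to 0.35, and leaving out combination tumour 1 moved it to -0.07.

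The score of the 11 other HIF targets was 6.56, 7.04 and 6.38 in vehicle tumours, 6.77, 6.70 and 6.22 in anti-PD1 tumours, 7.21, 6.14 and 6.87 in SN-38 tumours and 7.41, 6.87 and 5.90 in combination tumours. The score of the 13 glycolytic enzymes was 8.54, 8.80 and 8.47 in vehicle tumours, 8.71, 8.71 and 8.40 in anti-PD1 tumours, 8.84, 8.23 and 8.85 in SN-38 tumours and 8.97, 8.84 and 8.33 in combination tumours. Both scores placed SN-38 tumour 2 and combination tumour 3 lowest, and combination tumour 1 highest. By contrast, the score of the 2 HIF subunits was 5.92, 6.00 and 6.04 in vehicle tumours, 5.71, 6.05 and 6.26 in anti-PD1 tumours, 6.18, 6.23 and 6.49 in SN-38 tumours and 6.15, 6.27 and 6.21 in combination tumours, highest in SN-38 tumour 3 and lowest in anti-PD1 tumour 1. The group means of the HIF target score were 6.66 ± 0.34, 6.56 ± 0.30, 6.74 ± 0.55 and 6.73 ± 0.77 (SD, n = 3), and its tumours within the combination ranged most.

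**Figure D4:**
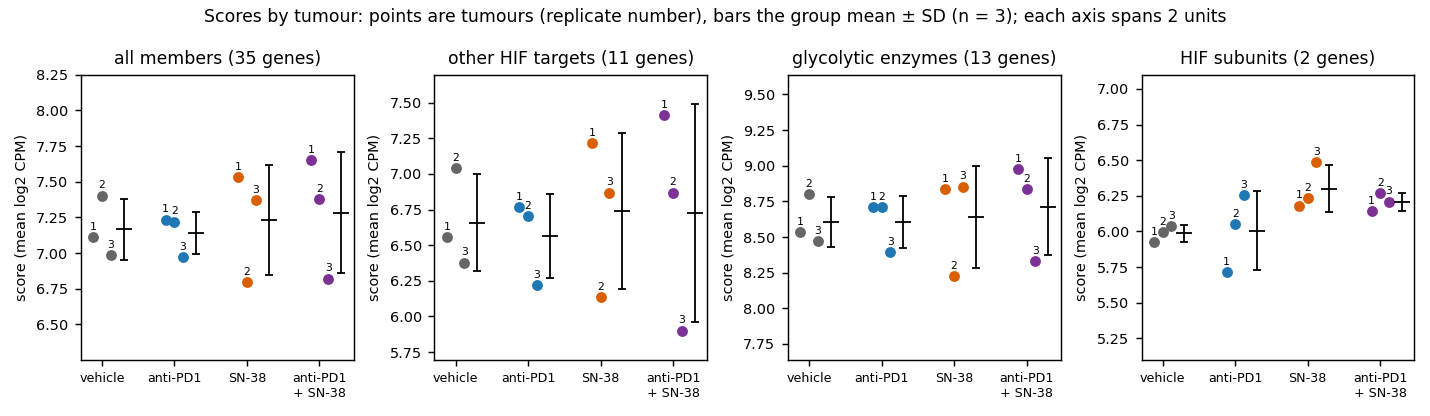
Points are tumours with their replicate number, bars the group mean ± SD (n = 3), and each panel spans 2 units of mean log2 CPM. The scores of all members, of other HIF targets and of glycolytic enzymes separate combination tumour 1 (7.65, 7.41 and 8.97) from combination tumour 3 (6.82, 5.90 and 8.33), whereas the HIF subunit score does not (6.15 and 6.21).

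Groups accounted for little of the members' variance. The share of the variance of log2 CPM that lay between the 4 groups had a median of 9.42% over the members, from 0.149% (Bnip3) to 50.9% (Slc2a3), against a median of 30.3% over all genes tested. The SD of log2 CPM over the 12 tumours had a median of 0.32 among members, from 0.13 (P4ha1) to 1.09 (Adm), against 0.24 among all genes tested and 0.16 among those with a mean above 10 CPM.

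Correlations over the 12 tumours describe how far the members moved together. The points are the same 12 libraries throughout, and the values are a description with no test. Over the 595 pairs of members the median Pearson r of log2 CPM was 0.65, and 79.3% of pairs were above 0. Taken about the group means the median was 0.74, so the relation lay inside the groups. Among the 11 other HIF targets the median was 0.77 and among the 13 glycolytic enzymes 0.74, with all 55 and all 78 pairs above 0. Pairs of a target with an enzyme had a median of 0.76 over 143 pairs.

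Compared with the mean of the other members, 25 of the 35 genes had an r above 0.7, against 2.59% of the 16797 other tested genes set against the score. The count was 27 about the group means and 26 without the 2 tumours farthest from the median score. Tpi1 (0.95), Vegfa, Adm, Bnip3l, Egln1 and Aldoa (0.94 each) followed most closely. By role, the genes above 0.7 were 2 of 2 oxygen sensors, 9 of 11 other HIF targets, 11 of 13 enzymes, 2 of 3 genes of pyruvate fate and 1 of 2 glucose transporters. None of the HIF subunits and none of the flux regulators was among them. Hif1a (-0.17), Epas1 (0.04), Slc2a3 (0.17), Slc16a3 (-0.02), Pfkfb3 (-0.39) and Pfkfb4 (-0.38) did not follow the rest, and P4ha2 (0.24) did so weakly.

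Other genes of the same pathways were read from 3 lists. Of 30 other HIF pathway and target genes, all were tested, none passed by edgeR in any of the 8 comparisons (0 to 2 had an unadjusted p below 0.05, as 5.6% to 12.9% of all genes did), and 12 had an r above 0.7 with the score. Fam162a (0.98), a mitochondrial protein induced by HIF, and Pgf (0.96), the placental growth factor of the Vegfa family, were closest. Ero1l, an oxidase that forms disulfide bonds in secreted proteins, was at 87.7, 129 and 58.4 CPM in vehicle tumours, 78.1, 64.1 and 58.7 in anti-PD1 tumours, 178, 44.9 and 99.5 in SN-38 tumours and 263, 145 and 57.8 in combination tumours (r = 0.93). It was highest in combination tumour 1 and lowest in SN-38 tumour 2. Stc2, a secreted glycoprotein, ran the other way (r = -0.71, 3.47 to 13.1 CPM). Arnt, the partner of the HIF alpha subunits, was steady between 87.9 and 108 CPM (r = 0.27). Wsb1, an E3 ligase subunit, had the smallest p on this list, at 0.51 ± 0.08 (SE, log2) for the combination against anti-PD1 (edgeR adjusted p = 0.178). DESeq2 called Wsb1 in 4 comparisons (the combination against each other group and the averaged SN-38 effect), and no other gene of the 3 lists in any.

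Of 32 other glycolytic and linked enzymes 29 were tested, and none passed by edgeR in any comparison. At an unadjusted p below 0.05 there were 0 to 5, where 5.6% to 12.9% of all genes did so. The 5 were for the combination against vehicle, where the share of all genes was 12.9%. Pgm1, a phosphoglucomutase that links glycogen to glycolysis, was the 1 with an r above 0.7 (0.92). The median r of this list was 0.08, against 0.53 for the HIF list. Hk3, the hexokinase of white blood cells, differed from vehicle by 1.87 ± 0.62 (SE, log2) with the combination (edgeR adjusted p = 0.337). It was at 3.99, 2.29 and 2.31 CPM in vehicle tumours, 5.77, 2.69 and 12.7 in anti-PD1 tumours, 4.46, 3.58 and 1.73 in SN-38 tumours and 4.63, 9.12 and 17.7 in combination tumours. Its highest values were in combination tumour 3 and anti-PD1 tumour 3, which had the highest macrophage and T-cell sums, and the part of those cells was not tested. Of 12 upstream regulators of glycolysis 10 were tested, and none passed by edgeR or had an r above 0.7. At an unadjusted p below 0.05 there were 0 to 3 in 5 of the comparisons, against 6.67% to 12.9% of all genes. The others had 5 for anti-PD1 against vehicle (4 higher), where 5.6% of all genes did so. They also had 5 for SN-38 against vehicle (3 higher), against 10%, and 5 for the interaction, against 7.63%. These comparisons share the vehicle tumours. Mtor, the growth-controlling kinase, was at 0.25 ± 0.10 with anti-PD1 and 0.30 ± 0.10 with SN-38 (SE, log2 against vehicle, edgeR adjusted p = 0.844 and 0.370). Txnip, which restrains glucose uptake, had an interaction of -0.78 ± 0.23 (adjusted p = 0.597). Myc, which drives many glycolytic genes, was at 166, 206 and 182 CPM in vehicle tumours, 165, 179.7 and 159 in anti-PD1 tumours, 113, 147 and 157 in SN-38 tumours and 200.4, 196 and 180.0 in combination tumours, with r = 0.06. Its lowest value was in SN-38 tumour 1 and its highest were in vehicle tumour 2 and combination tumour 1, all of them high in most HIF targets. SN-38 against vehicle gave -0.41 ± 0.13 for Myc (SE, log2, edgeR adjusted p = 0.336).

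Cell type markers moved with the module score in part. Over the 12 tumours the score had an r of -0.57 with the summed macrophage markers, -0.53 with T cells, -0.60 with fibroblasts and matrix, 0.64 with neutrophils, 0.17 with squamous epithelium, 0.17 with endothelium and -0.07 with proliferation genes. Spearman's rho was -0.55, -0.40, -0.67, 0.60, 0.24, 0.17 and 0.24 in that order. Without the 2 tumours farthest from the median these were -0.71, -0.66, -0.54, 0.52, 0.07, -0.03 and -0.39 as r. For skeletal muscle the r was -0.30 over the 12 tumours (rho -0.24) and -0.54 without the 2 farthest. Red blood cells and adipocytes had an r of 0.12 and -0.11. The squamous markers were split. Krt8, Cdh1, Krt18 and Epcam had an r of 0.78, 0.76, 0.74 and 0.72 with the score. Krt5 and Krt14, the highest in level, had 0.16 and -0.20, and Krt17 had -0.07. The macrophage marker Arg1 had an r of 0.50, against -0.65 (Csf1r) to -0.44 (Cd68) for the other macrophage markers. Endothelial markers ran from -0.39 (Kdr) to 0.75 (Emcn). All 10 macrophage, 8 T-cell and 10 fibroblast markers passed the filter, and 8 of 12 neutrophil markers did. The lowest scores came with different markers, since SN-38 tumour 2 had the highest fibroblast sum (65869 CPM) and combination tumour 3 the highest macrophage and T-cell sums (1266 and 226 CPM). SN-38 tumour 1, high in the score, had the highest neutrophil sum (314 CPM) and the lowest sum of proliferation genes (666 CPM). Mmp9, at 39.6 to 171 CPM, reached the highest level on the neutrophil list and had an r of 0.66 with the score. The other neutrophil markers had an r from -0.21 (Camp) to 0.48 (Trem1), with Csf3r at 0.11 and Il1r2 at -0.02. Squamous marker sums were 21797 CPM in combination tumour 1, 15167 in combination tumour 3, 16125 in SN-38 tumour 1 and 19104 in SN-38 tumour 2. The part of cell mixture in the scores was not tested.

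**Figure D5:**
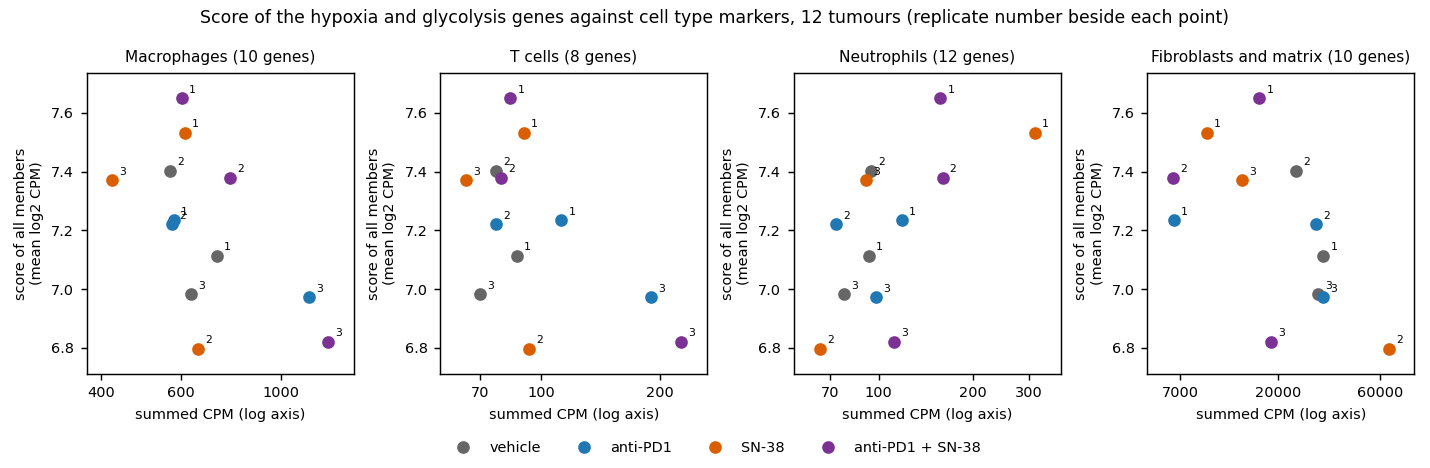
The score of the 35 genes (mean log2 CPM) is plotted against the summed CPM of 4 marker lists on log axes, with 1 point for each of 12 tumours and the replicate number beside it. Low scores go with high macrophage and T-cell sums in combination tumour 3 and anti-PD1 tumour 3 and with the highest fibroblast sum in SN-38 tumour 2, and the highest neutrophil sum (314 CPM) belongs to SN-38 tumour 1.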

How the data were processed

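RNA-seq counts per gene were deposited for 12 tumours, 3 in each of 4 groups, taken from the sample code in each label. Per the labels' protocols, libraries came from a stranded poly(A) TruSeq kit, and the submitters' processing notes name cutadapt 2.4, STAR 2.7.2a and the build GRCm38. The deposited values are whole-number counts, not normalized. Identifiers were matched without version to GENCODE M21 (54409 of 54446) for symbols, positions and exonic length.

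edgeR's filterByExpr left 16833 genes with over 99.9% of the counts, and TMM factors ran from 0.970 to 1.026. Genes were tested in edgeR 4.0.16 (R 4.3.3) by quasi-likelihood, with 4 group means, robust dispersions and all 12 tumours, adjusted by Benjamini and Hochberg's method. The alternatives were DESeq2 (1.42.0), other scalings, no filter, a replicate block, only the compared groups, and each tumour left out. The labels give no batch. On simulated counts for the 16833 genes, the test recovered 13.4%, 47.8% and 92.4% of genes changed 1.5-fold, 2-fold and 4-fold between SN-38 and vehicle, with 5 unchanged genes called, and 44.8%, 71.6% and 97.0% for the averaged SN-38 effect, with 8. For the score and the correlations, log2 CPM used a prior count of 2. No 2 tumours of a group agreed within counting noise (lowest chi-square per degree of freedom 11.8).

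The genes and lists were chosen with earlier results of these data known. Values in every tumour are given for the 2 members with the smallest p in each direction of each comparison, the 6 with the largest SD and 11 representatives of the roles. Of the other pathway genes, at most the 2 smallest p-values in each list and comparison were taken by rule, and Fam162a, Pgf, Ero1l, Stc2, Arnt and Pgm1 were named after their values were seen.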

Additional observations from a re-analysis of the deposited data

How the results depend on the processing

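No member passed in any of the 111 refits, 45 with another test, scaling, filter or design and 66 without a tumour. By DESeq2 the genes called among all tested were 28 for anti-PD1 and 150 for SN-38 against vehicle, 173 for the combination against vehicle, 77 against anti-PD1 and 51 against SN-38, 190 and 5 for the averaged SN-38 and anti-PD1 effects and 16 for the interaction, none of them a member. The single gene called for SN-38 against vehicle fell to 0 without the filter on low counts, with a block for the replicate number and with only the compared groups in the fit, and to 0 without each tumour in turn. For the combination against anti-PD1 the count was 1 without the filter and 0 to 1 without a tumour. For the averaged SN-38 effect it was 2 with library totals, 3 without the filter and 0 to 2 without a tumour. The labels do not say whether the replicate numbers pair the tumours. Of 18 same-numbered pairs, 4 had correlated deviations above 0.1 (range -0.47 to 0.63). These values cannot exclude a pairing, because differences in tumour make-up also enter them. With the block 0 members passed. Without a tumour, the score difference from vehicle ranged from -0.12 to 0.09 with anti-PD1, -0.08 to 0.29 with SN-38 and -0.067 to 0.35 with the combination, so no direction held, and the cause was not tested. The median r of member pairs ranged from 0.63 to 0.70. Of the fold changes of named genes without a tumour, 8 moved by more than the spread and 256 did not, and P4ha1 in the combination against anti-PD1 became -0.00 without combination tumour 3. The score with the second Aldoa identifier, added after seeing the data, differed from vehicle by 0.05 with SN-38 and 0.11 with the combination. The number of tumours limits single genes, since on simulated counts 47.8% of 2-fold changes were recovered for SN-38 against vehicle and 71.6% for the averaged SN-38 effect. These changes were planted in genes drawn at random, not in the members. For SN-38 against vehicle the members had a median SE of 0.25 against 0.18 over all genes, and recovery among the members was not estimated.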
